A study of Mus musculus with 12 samples.

Results

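The mitochondrial ribosomal proteins were read as all genes whose symbol begins with Mrpl (large subunit) or Mrps (small subunit) followed by a number, which gave 77 genes of 19937 genes in all, with 48 in the large and 29 in the small subunit. Membership rested on the symbol alone and not on any measured value. The 77 genes were measured on 12 Affymetrix mouse gene arrays of total RNA from the spleen of F1 mice of C57BL/6 and FVB parents, with 3 arrays for each of 4 labelled groups. Activated B cells were CD43-negative cells kept for 4 days in culture with αCD40 and IL-4, and resting B cells were CD43-negative cells taken on day 0. Activated T cells were B220-negative cells kept for 4 days with αCD3, αCD28 and IL-2, and resting T cells were B220-negative cells taken on day 0. All groups came from the same cross. Values are log2 units of the RMA signal, so that a difference of 1 is a 2-fold change.

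Most lineage genes went against the labels, and the groups are therefore named throughout as the arrays labelled with them. Over 9 T cell markers, the log2 of the summed linear level was 13.17 to 13.30 on the arrays labelled activated B and 13.43 to 13.56 on those labelled resting B, against 8.79 to 9.68 on those labelled activated T and 8.40 to 8.96 on those labelled resting T. Over 9 B cell markers it was 8.27 to 8.54 (labelled activated B) and 10.44 to 11.87 (labelled resting B), against 14.55 to 14.69 (labelled activated T) and 12.89 to 13.23 (labelled resting T). Cd3e, an invariant chain of the T cell receptor complex, averaged 10.07 ± 0.14, 10.61 ± 0.24, 6.43 ± 0.28 and 5.93 ± 0.36 log2 on the arrays labelled activated B, resting B, activated T and resting T (SD, n = 3 each). Cd79a, a signalling chain of the B cell receptor, averaged 4.50 ± 0.49, 8.27 ± 0.51, 11.64 ± 0.14 and 10.45 ± 0.28 log2 in the same order. Over 7 markers of dividing cells the summed level was 12.74 to 12.80 log2 on the arrays labelled activated B and 12.28 to 12.37 on those labelled resting T, against 8.59 to 9.04 on those labelled resting B and 8.42 to 8.98 on those labelled activated T. The markers of dividing cells were thus high in 1 activated and 1 resting group by the labels. Of the B cell markers, 6 of 9 were at or below the background (defined below) on the arrays labelled activated B, and of the T cell markers 3 of 9 on those labelled resting T. Markers of other cells also varied, with 8 myeloid markers at 8.51 to 8.66, 10.01 to 10.61, 9.86 to 10.26 and 9.41 to 9.68 log2 on the arrays labelled activated B, resting B, activated T and resting T, and 4 platelet markers at 6.99 to 7.13, 9.05 to 9.10, 8.20 to 8.38 and 6.98 to 7.25 log2. In the same order, 4 NK cell markers were at 6.73 to 7.09, 8.52 to 9.49, 6.95 to 8.37 and 6.12 to 6.58 log2, and 4 plasma cell markers at 10.51 to 10.75, 10.98 to 11.51, 9.25 to 9.44 and 11.27 to 11.37 log2. The sums hide markers that differ from their list. On the arrays labelled resting B relative to resting T, 6 of the 9 B cell markers were called lower and 1 higher, beside 19% and 16.1% of all genes. The higher one was Cr2, which averaged 7.83 against 6.52 log2, and Fcrl1 averaged 6.64 against 6.58 log2. On the arrays labelled activated B relative to resting B, 6 of the 8 myeloid markers were called lower and 1 higher, beside 16.7% and 19.7% of all genes. The higher one was Ly6g, which averaged 7.12 against 3.83 log2. Of the NK cell markers, Klrk1 averaged 6.45 log2 on the arrays labelled activated B and the others 2.86 to 3.97 log2. Of the plasma cell markers, the transcription factors Prdm1 and Xbp1 were higher on the arrays labelled activated B than on those labelled resting B (1.77 and 1.56 log2) and Jchain was lower (-6.67 log2). The part of these markers in the results was not tested. No array was moved to another group.

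The mitochondrial ribosome translates the few messages encoded by mitochondrial DNA, all of which code for subunits of the respiratory chain and of ATP synthase. Its ribosomal RNAs come from the mitochondrial genome, while all of its proteins are encoded in the nucleus, made in the cytosol and imported. Many of these proteins descend from bacterial ribosomal proteins and carry their numbers, and others are additions of the mitochondrial lineage. Lymphocytes that leave the resting state and grow are known to build up mitochondrial mass along with the rest of the cell.

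All 77 genes had a mean over the 12 arrays above the background of 5.21 log2, which was the 95th percentile of 1027 olfactory receptor genes. Only Mrpl42 had a group mean below it, 5.14 ± 0.16 log2 on the arrays labelled activated T (SD, n = 3). The genes moved together across the groups. The median deviation of the 77 genes from their own means was 0.41, 0.39 and 0.40 log2 on the arrays labelled activated B and -0.35, -0.18 and -0.19 log2 on those labelled resting B. It was -0.26, -0.40 and -0.35 log2 on the arrays labelled activated T and 0.12, 0.20 and 0.17 log2 on those labelled resting T, while the same median over all genes stayed between -0.05 and 0.03 log2 on every array. The highest group mean was that of the arrays labelled activated B for 62 genes, resting T for 14 and resting B for 1 (Mrpl24), and the lowest was that of activated T for 55, resting B for 19, resting T for 2 and activated B for 1. The most frequent order, found for 42 genes, was activated B, resting T, resting B and activated T from high to low. RMA brings the arrays to 1 distribution, so these are levels relative to the other genes of an array, and in bulk RNA a change in the share of cells and a change in RNA per cell cannot be told apart.

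**Figure D1:**
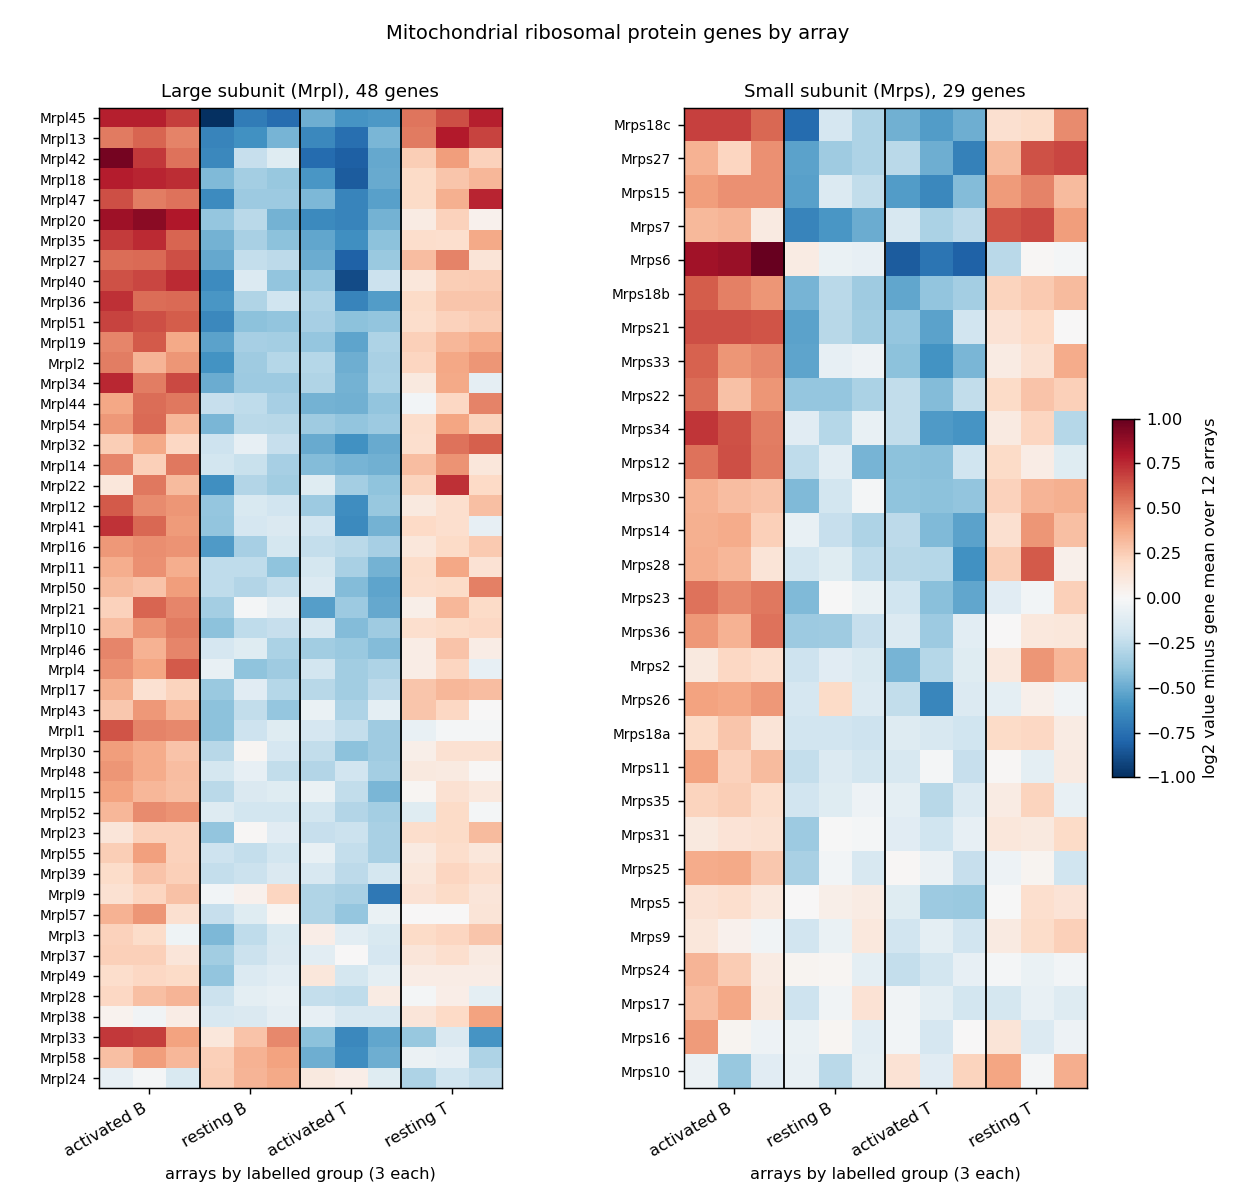
Heat map of each gene's log2 value minus its own mean over 12 arrays, with 1 row per gene, ordered within each subunit by the difference between the labelled B and T activation contrasts, and 1 column per array (3 per labelled group). Colours end at 1 and -1 log2; most rows are red in the activated B and the resting T columns and blue in the resting B and the activated T columns, with Mrpl24 and Mrps10 among the exceptions.

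**Figure D2:**
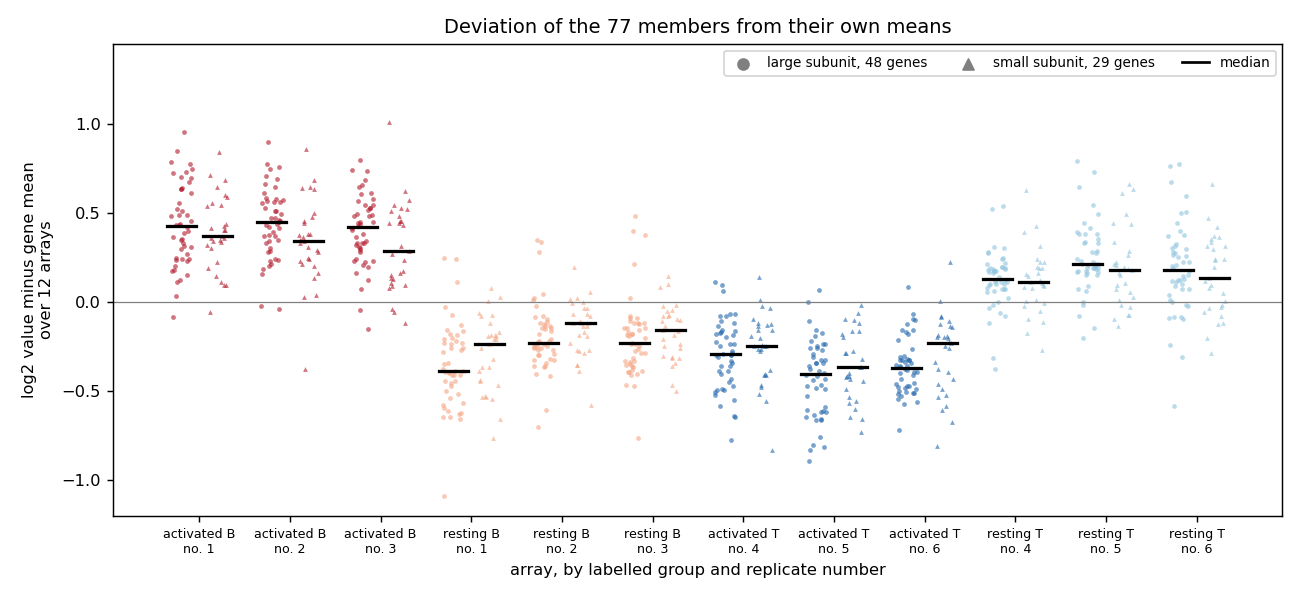
Deviation of every gene from its own mean (vertical axis, log2) on each of the 12 arrays (horizontal axis), with circles for the large and triangles for the small subunit and a bar at the median. The median over both subunits was 0.39 to 0.41 on the 3 arrays labelled activated B and -0.40 to -0.26 on the 3 labelled activated T.

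Sequences upstream of 5 of the genes are shown because their levels mark the range of behaviours described below: Mrpl45, Mrps27 and Mrpl18 with large changes along the common pattern, Mrpl24 with the opposite change, and Mrps6 with levels that also differed between the groups whose dividing-cell markers were closest. Each window runs from 250 bases before to 50 bases after the RefSeq start on GRCm38.p6, 5′ to 3′ on the strand of the gene, with any match to the motifs given below in capitals. The windows are chr11:97315466-97315765 on the plus strand (Mrpl45), chr13:99344536-99344835 on the plus strand (Mrps27), chr17:12916042-12916341 on the minus strand (Mrpl18), chr3:87919294-87919593 on the plus strand (Mrpl24) and chr16:92058086-92058385 on the plus strand (Mrps6).
Mrpl45: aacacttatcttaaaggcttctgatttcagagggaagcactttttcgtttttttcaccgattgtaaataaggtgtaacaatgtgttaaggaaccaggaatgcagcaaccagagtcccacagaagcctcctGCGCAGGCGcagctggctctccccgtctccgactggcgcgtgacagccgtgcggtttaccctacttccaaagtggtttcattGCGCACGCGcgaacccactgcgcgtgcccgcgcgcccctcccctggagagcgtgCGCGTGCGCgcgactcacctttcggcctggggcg
Mrps27: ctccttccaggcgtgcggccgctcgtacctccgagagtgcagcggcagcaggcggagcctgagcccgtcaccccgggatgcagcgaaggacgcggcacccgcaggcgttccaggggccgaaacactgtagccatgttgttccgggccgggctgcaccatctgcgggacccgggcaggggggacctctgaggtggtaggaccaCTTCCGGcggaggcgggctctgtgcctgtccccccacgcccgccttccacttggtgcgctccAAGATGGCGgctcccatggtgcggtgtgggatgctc
Mrpl18: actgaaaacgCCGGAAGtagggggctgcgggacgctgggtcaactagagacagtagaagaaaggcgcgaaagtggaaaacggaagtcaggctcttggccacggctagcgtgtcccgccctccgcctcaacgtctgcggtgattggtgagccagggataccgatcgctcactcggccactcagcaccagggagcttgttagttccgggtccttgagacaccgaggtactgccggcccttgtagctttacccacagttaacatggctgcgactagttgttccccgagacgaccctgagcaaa
Mrpl24: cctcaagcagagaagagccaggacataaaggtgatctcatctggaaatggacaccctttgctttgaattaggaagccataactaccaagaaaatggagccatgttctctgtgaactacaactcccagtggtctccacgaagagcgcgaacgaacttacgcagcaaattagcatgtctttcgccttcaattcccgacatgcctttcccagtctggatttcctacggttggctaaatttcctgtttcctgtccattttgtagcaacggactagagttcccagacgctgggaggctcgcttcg
Mrps6: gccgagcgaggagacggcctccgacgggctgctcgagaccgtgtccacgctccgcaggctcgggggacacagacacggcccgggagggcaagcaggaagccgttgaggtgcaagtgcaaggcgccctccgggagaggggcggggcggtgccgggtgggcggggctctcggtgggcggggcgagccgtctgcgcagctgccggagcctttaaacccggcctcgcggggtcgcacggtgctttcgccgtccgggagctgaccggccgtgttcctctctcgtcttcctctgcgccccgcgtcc

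In these windows Mrpl45 held 3 matches to the NRF1 motif GCGCANGCG, beginning 120 and 38 bases before and 16 bases after the start. Mrps27 held the ETS motif CCGGAAG on the other strand 48 bases before the start and the YY1 motif AAGATGGCG 14 bases after it, and Mrpl18 held 1 ETS motif 240 bases before the start. The windows of Mrpl24 and Mrps6 held none of these and no E-box (CACGTG). Windows were given for 68 of the 77 genes (74 windows), and both strands were searched for the 4 motifs, which overlapped one another in 0 of them. Some genes have several windows, which were nearly identical for Mrpl2 and less alike for Mrpl48 and Mrps16. A gene was counted once if any of its windows held a motif. For Mrpl48 and Mrps16 only some windows held the ETS motif for which they were counted. The ETS motif was in 36.8% of the 68 genes, against 12.9% of all protein-coding genes with such windows. The NRF1 motif was in 23.5% against 9.63% and the YY1 motif in 11.8% against 2.14%, while the E-box was in 7.35% against 8.91%. At least 1 of the 4 was in 63.2% of the mitochondrial ribosomal protein genes (69.0% for the large and 53.8% for the small subunit), against 27.9% of all protein-coding genes. The median GC content of the windows was 58.5% against 56.3%, and a match is a description of the letters, not evidence of a bound site.

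The first comparison asked how the genes differed with activation in the labelled B cells. On the arrays labelled activated B, 67 of the 77 genes were higher and 1 was lower than on those labelled resting B (limma, adjusted p under 0.05), where 19.7% of all genes were called higher and 16.7% lower. The median log2 fold change was 0.66 over the 77 genes and -0.02 over all genes. In the large subunit 43 genes rose and 1 fell (median 0.69), and in the small subunit 24 rose and 0 fell (median 0.53). The change was called and at least 2-fold for 12 of the 77 genes and for 1818 of all 19937 genes. The markers of dividing cells differed between the same arrays (12.74 to 12.80 against 8.59 to 9.04 log2), and their part in the result was not tested.

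Mrpl45 showed the largest rise. This large subunit protein, related to the import motor protein Tim44, lies near the exit of the peptide tunnel that faces the inner membrane. Its values were 8.44, 8.44 and 8.35 log2 on the arrays labelled activated B, against 6.57, 6.96 and 6.90 log2 on those labelled resting B. The groups did not overlap, and the log2 fold change was 1.60 (SE 0.11, limma adjusted p = 3.26e-09), which is 3.03-fold. Mrpl20, a large subunit protein with a bacterial counterpart, had 8.40, 8.45 and 8.35 log2 on the arrays labelled activated B and 7.16, 7.28 and 7.08 log2 on those labelled resting B. It rose by 1.23 (SE 0.09, adjusted p = 1.83e-08), again without overlap. Mrpl18, a counterpart of bacterial L18, had 10.36, 10.33 and 10.31 log2 against 9.13, 9.23 and 9.19 log2. It rose by 1.15 (SE 0.10, adjusted p = 5.06e-08). The groups were again apart, by over 1 log2 for the closest arrays. Mrpl51 rose by 1.12 (SE 0.09, adjusted p = 2.67e-08), a value that held for only 1 of its probe sets, as described below.

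In the small subunit, Mrps18c, 1 of 3 mouse relatives of the bacterial protein S18, rose by 1.06 (SE 0.13, adjusted p = 5.17e-06) and Mrps6, a relative of bacterial S6, by 0.92 (SE 0.10, adjusted p = 8.75e-07). Mrps12, a protein of the decoding centre, had 7.12, 7.22 and 7.10 log2 on the arrays labelled activated B and 6.32, 6.47 and 6.11 log2 on those labelled resting B, a rise of 0.85 (SE 0.11, adjusted p = 9.11e-06) without overlap. The stalk of the large subunit, which engages the translation factors, is built on Mrpl10 and Mrpl12. Mrpl10 rose by 0.72 (SE 0.10, adjusted p = 1.22e-05). Mrpl12, which is also known to bind the mitochondrial RNA polymerase, rose by 0.76 (SE 0.10, adjusted p = 1.50e-05), with 8.11, 7.97 and 7.94 log2 against 7.11, 7.35 and 7.31 log2.

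Mrpl24 went the other way. This large subunit protein, a counterpart of bacterial L24 near the tunnel exit, had 9.36, 9.42 and 9.29 log2 on the arrays labelled activated B, against 9.69, 9.78 and 9.82 log2 on those labelled resting B. The groups did not overlap, and the log2 fold change was -0.41 (SE 0.09, adjusted p = 0.00146). The 9 genes that were not called were Mrpl9, Mrpl33, Mrpl38, Mrpl58, Mrps5, Mrps9, Mrps10, Mrps16 and Mrps31. Their log2 fold changes ranged between -0.04 (Mrps10) and 0.31 (Mrpl33, adjusted p = 0.0742). Mrps17 was called (0.29, adjusted p = 0.041) although its arrays overlapped between the groups.

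In the labelled T cells the same contrast ran the opposite way. On the arrays labelled activated T, 62 of the 77 genes were lower and 1 was higher than on those labelled resting T, where 17.8% of all genes were called lower and 15.9% higher. The median was -0.51 over the 77 genes and 0.02 over all genes. In the large subunit 42 genes fell and 1 rose (median -0.55), and in the small subunit 20 fell and 0 rose (median -0.41). A called change of at least 2-fold was seen for 3 of the 77 genes and for 1576 of all 19937 genes, which is a smaller share of the 77. The markers of dividing cells were at 8.42 to 8.98 log2 on the arrays labelled activated T, against 12.28 to 12.37 log2 on those labelled resting T, and their part in the result was not tested.

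Mrpl13, a counterpart of bacterial L13 in the large subunit, had the largest change. Its values were 6.56, 6.45 and 6.75 log2 on the arrays labelled activated T, against 7.73, 8.0 and 7.88 log2 on those labelled resting T. The groups did not overlap, and the log2 fold change was -1.28 (SE 0.10, limma adjusted p = 3.62e-08). Mrpl45 had 7.17, 7.07 and 7.09 log2 on the arrays labelled activated T, against 8.20, 8.31 and 8.44 log2 on those labelled resting T, a log2 fold change of -1.21 (SE 0.11, adjusted p = 1.17e-07). Mrps27, a pentatricopeptide repeat protein of the small subunit, had 6.19, 5.97 and 5.78 log2 against 6.77, 7.09 and 7.12 log2. It fell by 1.01 on the log2 scale (SE 0.12, adjusted p = 4.58e-06). All 3 genes were thus lower on every array labelled activated T than on any array labelled resting T. Mrpl42 had 5.07, 5.03 and 5.33 log2 against 6.09, 6.26 and 6.07 log2, and its log2 fold change of -1.0 (SE 0.14, adjusted p = 1.90e-05) has its lower end at the background, where fold changes are understated.

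Mrpl24 was again the exception, with 9.54, 9.51 and 9.32 log2 on the arrays labelled activated T and 9.13, 9.24 and 9.2 log2 on those labelled resting T. Its rise of 0.27 (SE 0.09, adjusted p = 0.0285) was no longer called without resting T array 4 (0.24, adjusted p = 0.0968), activated T array 4 (0.23, adjusted p = 0.11) or activated T array 5 (0.24, adjusted p = 0.0989). The call was also lost with the replicate number as a block (adjusted p = 0.0576), median centring (adjusted p = 0.0604) and a fit of 2 groups only (adjusted p = 0.0662). Mrpl3, a large subunit protein mutated in a human mitochondrial disease, fell by 0.30 on the log2 scale (SE 0.10, adjusted p = 0.0366). That call was lost with the replicate block (adjusted p = 0.0706) and without resting T array 4, 5 or 6 (adjusted p = 0.0594, 0.0701 and 0.0941) or activated T array 5 or 6 (adjusted p = 0.109 and 0.125). Median centring (adjusted p = 0.0539), 75th percentile centring (adjusted p = 0.103), quantile normalization (adjusted p = 0.0936) and a fit of every probe set (adjusted p = 0.0545) also lost it. Of the 14 genes not called, 9 were in the small subunit, among them Mrps10 (-0.16, adjusted p = 0.393), Mrps16 (-0.04, adjusted p = 0.835) and Mrps17 (0.02, adjusted p = 0.933).

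The difference between both activation contrasts was itself tested as an interaction. It was positive, meaning a more positive change in the labelled B than in the labelled T cells, for 73 genes, negative for 1 and not called for 3, where 21.9% of all genes were called positive and 20.9% negative. The median was 1.23 over the 77 genes and -0.03 over all genes, and all 48 large subunit genes were called, 47 of them positive. Mrpl45 (2.81), Mrpl13 (2.39), Mrpl42 (2.07) and Mrpl18 (2.05) had the largest values and Mrpl24 (-0.68, SE 0.13, adjusted p = 0.000278) the only negative call. The 3 genes without a call were Mrps10 (0.12, adjusted p = 0.636), Mrps16 (0.22, adjusted p = 0.322) and Mrps17 (0.27, adjusted p = 0.165), all of the small subunit. Both contrasts share no arrays, and 57 of the 77 genes (74%) were called higher in the labelled B and lower in the labelled T cells, as were 12.9% of all genes. The log2 fold changes of both contrasts were opposite in sign for 97.4% of the 77 genes and for 69.7% of all genes. Across genes, which are not independent replicates, their Pearson correlation was -0.70 over the 77 genes and -0.68 over all genes.

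**Figure D3:**
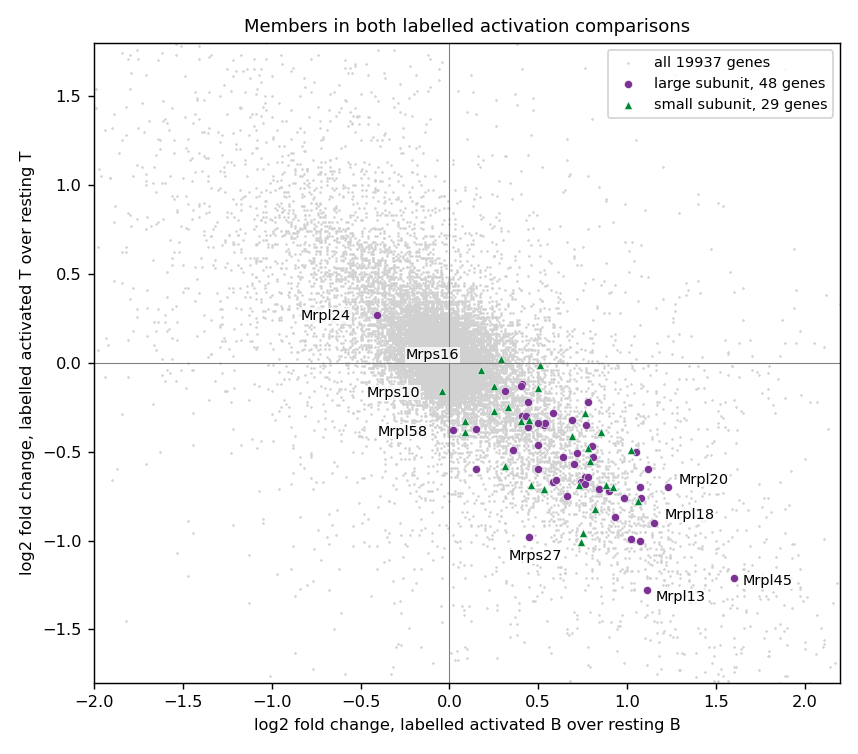
Log2 fold change of labelled activated over resting B (horizontal axis) against that of labelled activated over resting T (vertical axis), with large subunit genes as circles, small subunit genes as triangles and all genes as grey dots, of which those beyond the axes are not drawn. Most of the 77 genes lie at the lower right, down to Mrpl13 (1.11 and -1.28) and Mrpl45 (1.60 and -1.21), and Mrpl24 lies alone at the upper left (-0.41 and 0.27).

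The labelled cell types were also compared in the same labelled state. On the arrays labelled resting B, 55 of the 77 genes were lower and 3 higher than on those labelled resting T, where 19% of all genes were called lower and 16.1% higher. The median was -0.42 over the 77 genes (large subunit -0.50, small subunit -0.36) and 0 over all genes. The markers of dividing cells were at 8.59 to 9.04 log2 on the arrays labelled resting B, against 12.28 to 12.37 log2 on those labelled resting T. On the arrays labelled activated B, 69 genes were higher and 0 lower than on those labelled activated T, where 21.8% of all genes were called higher and 18.9% lower. The median was 0.74 (large subunit 0.80, small subunit 0.66) against -0.03 over all genes. A called change of at least 2-fold was seen for 18 of the 77 genes and for 2429 of all 19937 genes. The markers of dividing cells were at 12.74 to 12.80 log2 on the arrays labelled activated B, against 8.42 to 8.98 log2 on those labelled activated T. The part of these markers in both comparisons was not tested. Both comparisons use the arrays of the contrasts above and are not separate evidence.

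In the comparison of the groups labelled resting, Mrpl45 was lower on the arrays labelled B, with a log2 fold change of -1.51 (SE 0.11, limma adjusted p = 5.65e-09), and Mrpl13 had -1.24 (SE 0.10, adjusted p = 4.19e-08). Mrps7, a relative of bacterial S7, had -1.15 (SE 0.10, adjusted p = 7.61e-08) and Mrps27 had -0.93 (SE 0.12, adjusted p = 9.96e-06). The 3 genes that were higher on the arrays labelled B were Mrpl33 (0.66, adjusted p = 0.000505), Mrpl24 (0.58, adjusted p = 6.09e-05) and Mrpl58 (0.48, adjusted p = 0.000584). In that of the groups labelled activated, Mrps6 had 9.08, 9.10 and 9.25 log2 on the arrays labelled B, against 7.41, 7.51 and 7.43 log2 on those labelled T. That was the largest difference of the 77 genes, 1.69 (SE 0.10, adjusted p = 3.15e-10) or 3.23-fold, and the arrays did not overlap. Mrpl20 (1.44), Mrpl42 (1.43) and Mrpl18 (1.40) followed, and Mrpl24 was not called (-0.10, adjusted p = 0.413).

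In the remaining pairs of groups the lineage markers differed, those of dividing cells were closer, and fewer of the 77 genes were called. The markers of dividing cells were at 8.59 to 9.04 log2 on the arrays labelled resting B against 8.42 to 8.98 log2 on those labelled activated T. They were at 12.74 to 12.80 log2 on the arrays labelled activated B against 12.28 to 12.37 log2 on those labelled resting T. In this second pair 5 of the 7 were called higher (median 0.40), beside 13% of all genes. In the first pair 2 were called higher and 1 lower, beside 9.68% and 8.82% of all genes. The part of these markers in both comparisons was not tested. Between the arrays labelled resting B and those labelled activated T, 7 genes were higher, 1 was lower and 69 were not called, where 9.68% of all genes were called higher and 8.82% lower. The share of the 77 that was higher was near that of all genes, and the share that was lower was below it. The count of higher genes was 11 without resting B array 1 and 13 with array quality weights. The median was 0.09 against -0.01 over all genes. Between the arrays labelled activated B and those labelled resting T, 29 genes were higher, 2 were lower and 46 were not called, where 13% of all genes were called higher and 9.93% lower. Without activated B array 1, 19 genes were higher. The median was 0.24 against -0.01 over all genes, and 18 of the genes that were higher were in the large and 11 in the small subunit. In the first of these pairs Mrpl9, a counterpart of bacterial L9, was higher by 0.52 (SE 0.11, adjusted p = 0.00248), and in the second Mrpl20 by 0.73 (SE 0.09, adjusted p = 1.31e-05) and Mrps34 by 0.61 (SE 0.13, adjusted p = 0.00189). Mrpl45, which had the largest interaction, differed by 0.09 (SE 0.11, adjusted p = 0.656) between the activated B and resting T groups.

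In both of these pairs 4 genes were called, each in 1 direction. Mrps6 was higher by 0.77 on the arrays labelled resting B than on those labelled activated T (SE 0.10, limma adjusted p = 1.45e-05) and by 1.0 on those labelled activated B than on those labelled resting T (SE 0.10, adjusted p = 5.86e-07). Mrpl33, a counterpart of bacterial L33, had 7.79, 7.78 and 7.49 log2 (labelled activated B), 7.20, 7.37 and 7.57 log2 (resting B), 6.68, 6.44 and 6.57 log2 (activated T) and 6.71, 6.94 and 6.50 log2 (resting T). Every array labelled B lay above every array labelled T, with differences of 0.82 (adjusted p = 0.000138) and 0.97 (adjusted p = 1.90e-05) in these pairs. Mrpl58, also known as Ict1, a peptidyl-tRNA hydrolase that frees stalled mitochondrial ribosomes, had 7.95, 8.07 and 7.98 log2 (labelled activated B), 7.89, 8.0 and 8.05 log2 (resting B), 7.16, 7.03 and 7.16 log2 (activated T) and 7.59, 7.57 and 7.34 log2 (resting T). It too was higher on all arrays labelled B, by 0.86 (adjusted p = 2.49e-06) and 0.50 (adjusted p = 0.000755), and differed by 0.02 (SE 0.09) between labelled activated and resting B. How many of all genes separate the labelled B and T arrays in this way was not worked out. Mrps7 was the only one lower on the arrays labelled B, with a log2 fold change of -0.33 in both pairs (adjusted p = 0.027 and 0.0251). Its call was lost between resting B and activated T without resting B array 1 or 2 (adjusted p = 0.094 and 0.0682) or activated T array 4 or 6 (adjusted p = 0.106 and 0.0583), and between activated B and resting T without activated B array 3 (adjusted p = 0.142) or resting T array 4 or 5 (adjusted p = 0.0895 and 0.094). Of the 2 genes lower on the arrays labelled activated B than on those labelled resting T, Mrps10 (-0.43, adjusted p = 0.0205) lost its call without activated B array 2 (adjusted p = 0.113) or resting T array 4 or 6 (adjusted p = 0.0975 and 0.0798). A fit of every probe set lost this call (adjusted p = 0.056) and that of Mrps7 between resting B and activated T (adjusted p = 0.0503). A fit of 2 groups only lost that of Mrps7 between activated B and resting T (adjusted p = 0.0524).

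**Figure D4:**
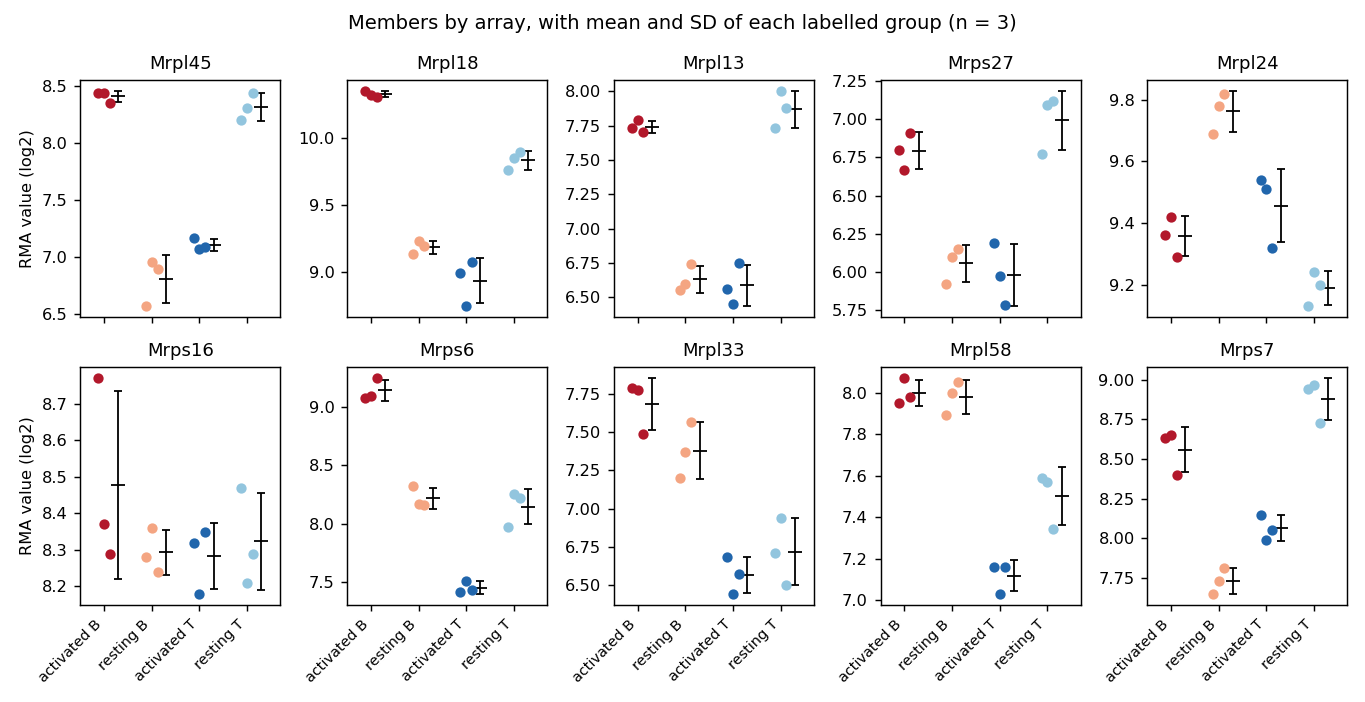
RMA values (vertical axes, log2, 1 scale per gene) of 10 genes on the arrays of the 4 labelled groups, with each array as a point and the mean and SD of the group (n = 3) beside it. Mrpl45, Mrpl18, Mrpl13 and Mrps27 are high in the activated B and the resting T groups, Mrpl24 is highest on those labelled resting B, and every array labelled B lies above every array labelled T for Mrpl33 and Mrpl58.

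The counts were also read by the origin of the proteins. Of the 44 genes named after a bacterial protein (numbers up to 36 in the large and 21 in the small subunit), 37 rose and 1 fell on the arrays labelled activated B relative to resting B, with a median of 0.71. Of the 33 with higher numbers, which mostly lack a bacterial counterpart, 30 rose and 0 fell, with a median of 0.60. On the arrays labelled activated T relative to resting T, 36 of the 44 fell and 1 rose (median -0.58), and 26 of the 33 fell (median -0.41). Mrps18a and Mrps30, which carry small subunit names but lie in the large subunit of the mammalian ribosome, rose by 0.40 and 0.53 in the labelled B contrast (adjusted p = 0.000968 and 0.000437). Their log2 fold changes in the labelled T contrast were -0.33 and -0.71 (adjusted p = 0.0053 and 2.94e-05). The relatives Mrps18b and Mrps18c changed by 0.88 and 1.06 in the labelled B contrast and by -0.69 and -0.78 in the labelled T contrast, so that Mrps18a had the smallest value of the 3 in both. No test of the difference between subunits or classes was made.

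The genes described next were all called higher in the labelled B and lower in the labelled T contrast except for Mrps16. Mrps16, mutated in a human defect of mitochondrial translation, had 8.77, 8.37 and 8.29 log2 on the arrays labelled activated B, against 8.28, 8.36 and 8.24 log2 on those labelled resting B. The groups overlapped, and 1 array labelled activated B stood above the other 11 (0.18, SE 0.12, adjusted p = 0.281). Mrps22, mutated in the same class of disease, rose by 0.79 in the labelled B contrast (SE 0.09, adjusted p = 3.16e-06) and fell by 0.55 in the labelled T contrast (SE 0.09, adjusted p = 0.00015). Mrpl44, a relative of double-strand RNA nucleases, changed by 0.76 and -0.68 (adjusted p = 3.93e-05 and 0.000141). Mrpl11, a counterpart of bacterial L11, changed by 0.70 and -0.57 (adjusted p = 2.49e-05 and 0.000229), Mrps14 by 0.53 and -0.71 (adjusted p = 0.000612 and 3.66e-05) and Mrps15 by 0.75 and -0.96 (adjusted p = 2.27e-05 and 1.80e-06). Mrps34 changed by 0.78 and -0.48 (adjusted p = 0.000113 and 0.00822), with overlapping arrays in the labelled T contrast. Mrps12 fell by 0.39 in the labelled T contrast (SE 0.11, adjusted p = 0.0109). That call was lost without resting T array 4 (adjusted p = 0.0584) and with 75th percentile centring (adjusted p = 0.0583). Mrps36, which is also known as a subunit of the 2-oxoglutarate dehydrogenase complex of the citric acid cycle, rose by 0.76 in the labelled B contrast (SE 0.10, adjusted p = 6.26e-06). Its change of -0.28 in the labelled T contrast (adjusted p = 0.0312) was not called without resting T array 5 or 6 (adjusted p = 0.0811 and 0.0795) or activated T array 5 (adjusted p = 0.169). The call was also lost with 75th percentile centring (adjusted p = 0.114), quantile normalization (adjusted p = 0.107) and a fit of 2 groups only (adjusted p = 0.0623).

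Some values depend on which probe set stood for a gene. Of the 77 genes, 8 had 2 probe sets, of which the one with the higher mean was used. For Mrpl51 the unused probe set (mean 6.88 log2) changed by -0.01 and 0.11 in the labelled B and T contrasts, against 1.12 and -0.60 for the one used, and the mean of both gave 0.56 in the labelled B contrast. For Mrpl41 the unused one (mean 6.50 log2) changed by 0.08 and -0.04, against 0.81 and -0.53, and with the mean of both the labelled T change was -0.28 and no longer called (adjusted p = 0.0681). The unused probe sets of Mrpl47 (0.06 and -0.19) and Mrps33 (0.06 and -0.04), with means of 5.28 and 4.80 log2, lay near or below the background. Those of Mrpl23 (0.53 and -0.63), Mrpl27 (0.69 and -0.66) and Mrps36 (0.85 and -0.43) changed like the ones used. For Mrps5 the unused one changed by 0.21 and -0.04 and the used one by 0.09 and -0.39. RefSeq lists pseudogenes named after Mrpl23, Mrpl27, Mrpl48, Mrpl51, Mrps33 and Mrps36, and a probe set could read such a copy, so the values of these genes are uncertain.

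The other parts of mitochondrial translation were read from lists of genes outside the 77. Their counts stand beside 19.7% of all genes called higher and 16.7% lower in the labelled B contrast, and 15.9% higher and 17.8% lower in the labelled T contrast. Of 4 further proteins of the mitochondrial ribosome, 4 rose and 0 fell on the arrays labelled activated B relative to resting B (median 0.60), among them Dap3, a GTP-binding protein of the small subunit (0.58, adjusted p = 3.91e-05). In the labelled T contrast 3 of the 4 fell, Dap3 by 0.55 on the log2 scale (adjusted p = 7.49e-05). Of 11 translation factors, 6 rose and 0 fell in the labelled B contrast (median 0.27), and 1 rose and 6 fell in the labelled T contrast (median -0.34). Tufm, the elongation factor that delivers aminoacyl-tRNA, changed by 0.68 and -0.70 (adjusted p = 3.71e-05 and 3.12e-05), and its exchange factor Tsfm by 0.82 and -0.80 (adjusted p = 2.84e-06 and 4.07e-06). Gfm1, which drives translocation, changed by 0.92 and -0.63 (adjusted p = 6.81e-07 and 4.85e-05). The initiation factors Mtif2 (0.13 and -0.03) and Mtif3 (-0.01 and 0.33) differed from this pattern, and Mtif3 was called higher in the labelled T contrast (adjusted p = 0.00747).

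Of 20 assembly factors of the mitochondrial ribosome, 9 rose and 3 fell in the labelled B contrast (median 0.19), and 2 rose and 7 fell in the labelled T contrast (median -0.07). The 3 of 20 that fell in the labelled B contrast were near the 16.7% of all genes. Tfb1m, which methylates the small ribosomal RNA, changed by 0.43 and -0.64 (adjusted p = 0.00246 and 7.29e-05), whereas Mterf3 changed by -0.40 and 0.52 (adjusted p = 0.00133 and 0.00015). Of 8 factors of mitochondrial transcription and mRNA, 5 rose and 0 fell in the labelled B contrast (median 0.39), and 0 rose and 3 fell in the labelled T contrast (median -0.19). Slirp, which with Lrpprc keeps mitochondrial mRNAs stable, changed by 1.48 and -0.95 (adjusted p = 6.19e-09 and 1.38e-06), and the mitochondrial RNA polymerase Polrmt was not called (-0.18 and 0.08). Of 9 nuclear regulators, 3 rose and 1 fell in the labelled B contrast (median 0.06), and 3 rose and 2 fell in the labelled T contrast (median -0.01). Myc changed by 1.24 and -0.99 (adjusted p = 1.82e-08 and 3.25e-07) and Gabpb1, a partner of Gabpa, by 0.56 and -0.32 (adjusted p = 0.000122 and 0.0134). In the labelled B contrast Pprc1 rose by 0.47 (adjusted p = 0.00194) and Ppargc1b fell by 0.49 (adjusted p = 0.00181). In the labelled T contrast Ppargc1a rose by 0.57 (adjusted p = 0.00166) and Esrra by 0.30 (adjusted p = 0.0116). Ppargc1a lay below the background of 5.21 log2 in every group (4.69 log2 on the arrays labelled activated T and 4.12 log2 on those labelled resting T), so its call is uncertain. The DNA-binding factors Nrf1, Gabpa and Yy1 had smaller values in the labelled B contrast. Nrf1 had -0.07 (adjusted p = 0.593) and 0.42 (adjusted p = 0.00103), Gabpa 0.08 and -0.22 and Yy1 0.06 and -0.01.

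The subunits of the respiratory chain and of ATP synthase, the machines that the mitochondrial ribosome serves, had counts like those of the 77 genes. Of 80 such genes, 64 rose and 1 fell in the labelled B contrast (median 0.66), and 1 rose and 60 fell in the labelled T contrast (median -0.50). The proteins of the cytosolic ribosome had lower counts, beside the 19.7% of all genes higher and 16.7% lower in the labelled B contrast and the 15.9% and 17.8% in the labelled T contrast. Of 58 genes, 9 rose and 6 fell in the labelled B contrast (median 0.02), and 3 rose and 14 fell in the labelled T contrast (median -0.15). On the arrays labelled activated B, 22 of the 58 were higher and 2 lower than on those labelled activated T (median 0.21, with 21.8% of all genes higher and 18.9% lower), and 70 of the 80 were higher and 1 lower (median 0.84). These are descriptions of lists, with no test between them.

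**Figure D5:**
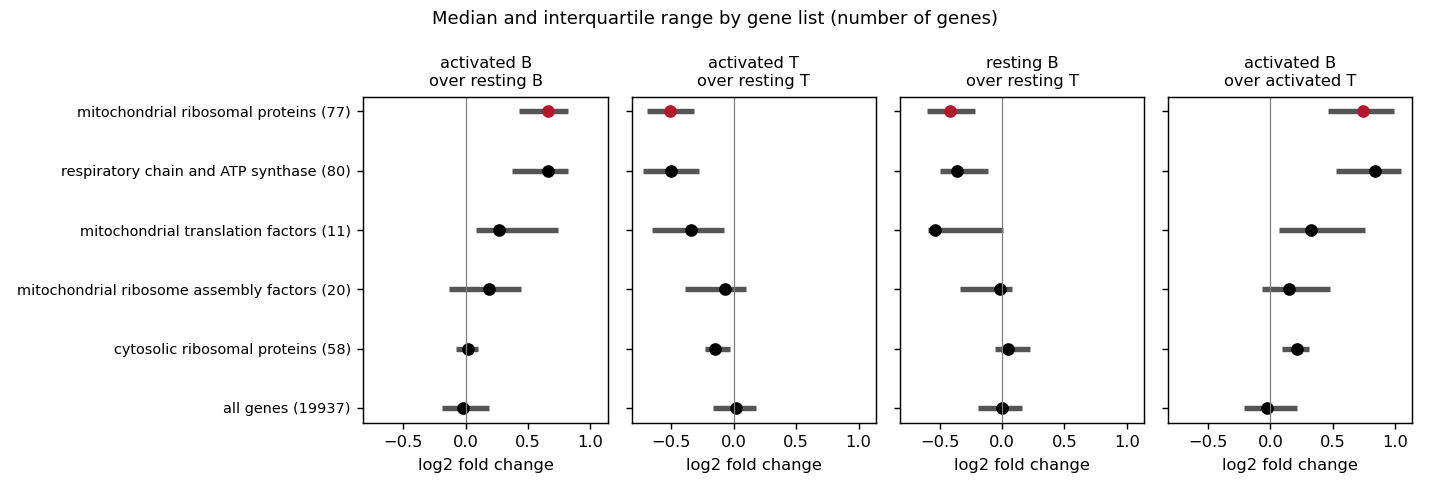
Median (point) and interquartile range (bar) of the log2 fold changes (horizontal axes) of 6 gene lists in 4 comparisons of the labelled groups, with the number of genes in brackets. The mitochondrial ribosomal proteins and the respiratory chain lie together at 0.66 in the first and near -0.5 in the second comparison, and the cytosolic ribosomal proteins lie at 0.02 and -0.15.

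Several of the genes share their start region with a gene on the other strand. Of the 68 genes with a promoter window, 25 had a protein-coding gene on the other strand that started within 1000 bases upstream or just past their own start in RefSeq. The other genes were not searched, and the share of all genes with such a partner was not worked out. Of 22 such partners that were measured and lay outside the 77, 9 were called higher and 4 lower in the labelled B contrast (median 0.08), and 4 higher and 9 lower in the labelled T contrast (median -0.24), beside 19.7% of all genes higher and 16.7% lower in the labelled B contrast and 15.9% and 17.8% in the labelled T contrast. The 4 lower partners in the labelled B contrast and the 4 higher ones in the labelled T contrast were near these shares. Mrpl46 and Mrps11 were partners of each other, with starts 42 bases apart, and changed by 0.64 and 0.50 in the labelled B contrast (adjusted p = 2.95e-05 and 0.000296). Mrpl18 and Tcp1, a subunit of the cytosolic chaperonin, lay 238 bases apart, and Tcp1 changed by 1.12 and -1.12 in the labelled B and T contrasts (adjusted p = 5.25e-08 and 6.46e-08). Mrpl47 and Ndufb5, a subunit of respiratory complex I, lay 308 bases apart, and Ndufb5 changed by 0.77 and -0.71 (adjusted p = 1.09e-06 and 3.30e-06). Mrps7 and Gga3, an adaptor of vesicle traffic, lay 224 bases apart and moved in opposite directions, Gga3 by -0.67 and 0.43 (adjusted p = 5.69e-05 and 0.00321). Mrpl41 and Pnpla7, a lysophospholipase, lay 935 bases apart, and Pnpla7 changed by -1.53 and 0.94 (adjusted p = 1.06e-09 and 4.29e-07). The change of Mrpl41 itself held for only 1 of its probe sets. The largest changes of partners were those of Ska3 beside Mrpl57 (3.96 and -3.44), Ncapd2 beside Mrpl51 (2.83 and -2.37) and Eme1 beside Mrpl27 (2.39 and -1.68).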

How the data were processed

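Gene expression was measured in total RNA extracted with Trizol, labelled with a whole-transcript kit and hybridised to 12 arrays. The deposited log2 values were made by the authors with RMA, which corrects the background, equalises the distributions of the arrays and combines the probes of a set. The version of RMA is not given in the sources used here. Array medians lay between 5.50 and 5.68 log2, and the small number of arrays limits the precision.

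Of 34760 probe sets, 21640 carried 1 gene symbol, 1321 several and 11799 none named here. For 954 genes with several probe sets the one with the highest mean was used, which gave 19937 genes. The 77 genes had 85 probe sets with 1 symbol, and 1 more with several symbols was not used. Linear models (limma 3.58.1 under R 4.3.3) had a mean per labelled group, moderated variances, 8 residual and 7.8 prior degrees of freedom, and Benjamini-Hochberg adjustment over all genes at 0.05. Lists were described by counts and medians, with no test. Nothing in the sources says that replicate arrays stem from different mice, so the spread behind the p-values may be technical. The steps were tested on simulated data for the labelled B contrast, where 58% of changes of 0.5 log2 and 100% of those of 1 log2 were recovered. A gene without a call may therefore still differ by about 0.5 log2. No array was a copy of another. Python 3.11.15 and pandas 2.3.3 were used for tables and plots, and promoters and gene starts came from RefSeq tables of GRCm38.p6.

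The text names, per comparison, the 4 called genes with the largest change each way, genes called against the rest, and those of known special role. A few others, such as Mrps17, were named after their values were seen. The members and lists were chosen with earlier results of these data known. A few genes of the lists were not analysed here. The NRF1 motif was shortened by 1 base after the counts of a longer form had been seen.

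Both labelled B groups carry replicate numbers 1 to 3, and both labelled T groups 4 to 6. After subtracting each group mean, arrays with the same number had r = -0.06, 0.06 and 0.25 (labelled B) and 0.22, 0.16 and 0.23 (labelled T) over 12170 genes above background. By these values the numbers were read as pairs in the labelled T cells only. The reported fit has no replicate block, so its labelled T p-values leave that pairing out. The replicate block, run as an alternative, was fitted to both the labelled B and the labelled T arrays. With it, 59 genes were lower and 0 higher in the labelled T contrast, against 62 and 1 without it. Alternatives were other centring and normalization, filters on dim genes, other uses of several probe sets, an intensity trend, array weights, fits of 2 groups only, the replicate block, the subunits by structure, and leaving out each array.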

Additional observations from a re-analysis of the deposited data

Results flagged for a closer look

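The contrast of labelled activated over resting cells differed between the labelled B and T cells by a test of the difference itself (limma interaction) for 74 of the 77 genes, 73 positive and 1 negative. Among the large subunit genes chosen by the rule for named genes, the difference was 2.81 log2 for Mrpl45, 2.39 for Mrpl13, 2.07 for Mrpl42, 2.05 for Mrpl18, 1.93 for Mrpl20, 1.72 for Mrpl51, 1.44 for Mrpl44, 1.40 for Mrpl12, 1.34 for Mrpl41, 1.26 for Mrpl11, 1.23 for Mrpl10, 0.75 for Mrpl9, 0.70 for Mrpl3, 0.47 for Mrpl33, 0.40 for Mrpl58 and -0.68 for Mrpl24. Among the small subunit genes so chosen it was 1.84 for Mrps18c, 1.75 for Mrps27, 1.71 for Mrps15, 1.64 for Mrps7, 1.62 for Mrps6, 1.57 for Mrps18b, 1.34 for Mrps22, 1.26 for Mrps34, 1.24 for Mrps12, 1.24 for Mrps14, 1.24 for Mrps30, 1.05 for Mrps36 and 0.72 for Mrps18a. The values of Mrpl51 and Mrpl41 held for only 1 of their probe sets. The unused ones changed by -0.01 and 0.11 (Mrpl51) and by 0.08 and -0.04 (Mrpl41) in the labelled B and T contrasts. With the mean of both probe sets the difference for Mrpl41 was 0.73. Most lineage markers went against the labels of these arrays, and the markers of dividing cells did so in the labelled T groups only. Their part in these differences was not tested.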

How the results depend on the processing

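The direction of every count over the 77 genes was kept under the alternatives run. Of the calls, 63 of 68 (labelled activated B over resting B), 49 of 63 (activated T over resting T), 49 of 58 (resting B over resting T), 67 of 69 (activated B over activated T), 4 of 8 (resting B over activated T), 15 of 31 (activated B over resting T) and 68 of 74 (interaction) held in all alternatives run for them. Between resting B and activated T, array quality weights gave 14 calls, 13 higher and 1 lower, against 8 without them, and the cause was not tested. Leaving out 1 array gave 63 to 68, 55 to 64, 51 to 58, 67 to 71, 6 to 11, 21 to 34 and 71 to 74 calls in the same order. With the replicate block, 66, 59 and 73 genes were called in the labelled B contrast, the labelled T contrast and the interaction. Of 1912 values of named genes under alternatives, 38 lost their call and 0 reversed. Centring on the 75th percentile moved the median of all genes to -0.12 in the labelled B contrast, -0.15 between the activated groups and -0.21 in the interaction, where the medians of the 77 genes were 0.56, 0.62 and 1.05. Between the activated groups, where 0 genes were lower, 2 were called lower with that centring and 1 with quantile normalization, and the rise of Mrpl24 in the labelled T contrast was not called with median centring (adjusted p = 0.0604). With quantile normalization of the genes, the median of the 77 genes was 0.55 in the labelled B and -0.43 in the labelled T contrast. It was 0.61 between the activated groups and 1.01 in the interaction. Fold changes of dim genes such as Mrpl42 are understated near the background.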
